A study of Mus musculus with 12 samples.

Results

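Fatty acid oxidation was followed through 35 genes, chosen by symbol from the 55487 Ensembl genes of the count table. They comprise 19 mitochondrial enzymes and carriers, 9 peroxisomal enzymes, 3 enzymes of other or several compartments and 4 regulators, the receptors Ppara and Ppard and the coactivators Ppargc1a and Ppargc1b. RNA was sequenced from bone marrow-derived mesenchymal stromal cells (MSCs) of wild-type C57BL/6 mice in 3 groups of 4 samples. Control MSCs, labelled Negative, were untreated. A1-treated MSCs received 50 μM A1 for 6 h, and A1 + OVA-treated MSCs (A1-OVA) received 50 μM A1 with 1 mg/ml ovalbumin, a model antigen, for 6 h. A1 is a variant of the Accum molecule, in which cholic acid, a bile acid, is joined to a nuclear localization peptide of hnRNPA1. Ovalbumin without A1 was not among the groups, so that its own effect could be read only on top of A1. MSCs are plastic-adherent stromal cells expanded in culture. Whether the 4 samples of a group came from separate cultures or animals is not given in the sources used here, and p-values therefore measure the spread between these samples.

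Fatty acids enter mitochondria as carnitine esters, which the outer membrane enzyme Cpt1 makes, a carrier exchanges and Cpt2 turns back into acyl-CoA. In the matrix, a dehydrogenase, a hydratase, a second dehydrogenase and a thiolase act in turn to release acetyl-CoA, and electrons of the first step leave through the electron transfer flavoprotein (ETF) to the respiratory chain. Peroxisomes shorten very long and branched chains with a separate set of enzymes, whose first step passes electrons to oxygen, and PPAR receptors with PGC-1 coactivators are known to drive transcription of both sets.

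Each sample held between 13702348 and 16881995 counts, of which 97.7% to 98.5% fell on protein-coding genes. Transcripts encoded by the mitochondrial genome took 3.35% to 3.65% of counts in control MSCs, 2.81% to 3.29% with A1 and 2.77% to 3.06% with A1 + OVA. The summed level of 12 MSC surface and stromal markers was 13645 to 14393 CPM (read counts scaled for library size) in control, 11497 to 12015 CPM with A1 and 11681 to 12100 CPM with A1 + OVA. In that list Thy1 reached at most 17 counts and Nt5e at most 14, whereas Cxcl12 fell by 1.37 on the log2 scale with A1 and Cd44 rose by 1.39. The 12 blood cell markers summed to 9.59 to 10.6, 12.2 to 15.1 and 10.8 to 13.3 CPM in the same order of groups, with Tyrobp and Cd3e at 0, and most of that sum was Cd14, which rose by 0.57 with A1. The 6 endothelial markers summed to at most 1.73 CPM. The 7 adipocyte markers summed to 2.95 to 5.01 CPM in control, 1.45 to 1.95 CPM with A1 and 1.32 to 2.32 CPM with A1 + OVA, with Lep at 0, and both of their tested members were lower with A1, Adipoq with a log2 fold change of −1.71 and Cidec of −0.78. The adipocyte markers therefore moved with the oxidation genes, and their part in the results was not tested. In RNA from whole cultures, fewer cells of a type and less RNA per cell cannot be told apart.

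Most of the pathway was lower in A1-treated MSCs. Of the 33 members with enough counts to be tested, 28 were lower in A1-treated than in control MSCs (edgeR's quasi-likelihood test, adjusted p under 0.05 over 11314 genes), 1 was higher and 4 did not pass. Over all tested genes, 31.1% were called lower and 31.7% higher. The median log2 fold change of the tested members was −0.39, against −0.0017 over all tested genes. A fall of at least 0.5 on the log2 scale was called in 13 members, against 11.6% of all tested genes. All 4 A1-treated samples lay below all 4 control samples for 25 members, against 26.4% of all tested genes. Ppara and Ppargc1a were too low to be tested. With A1 + OVA, 26 members were lower and 1 was higher than in control, and 6 did not pass (background 27.9% lower and 29.7% higher). The median was −0.33, against 0.0036 over all tested genes, 7 members fell by at least 0.5 (background 8.79%) and 24 lay below control without overlap (background 24%). The A1 and A1 + OVA comparisons share the 4 control samples, so that their values are given side by side and are not independent of each other.

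**Figure D1:**
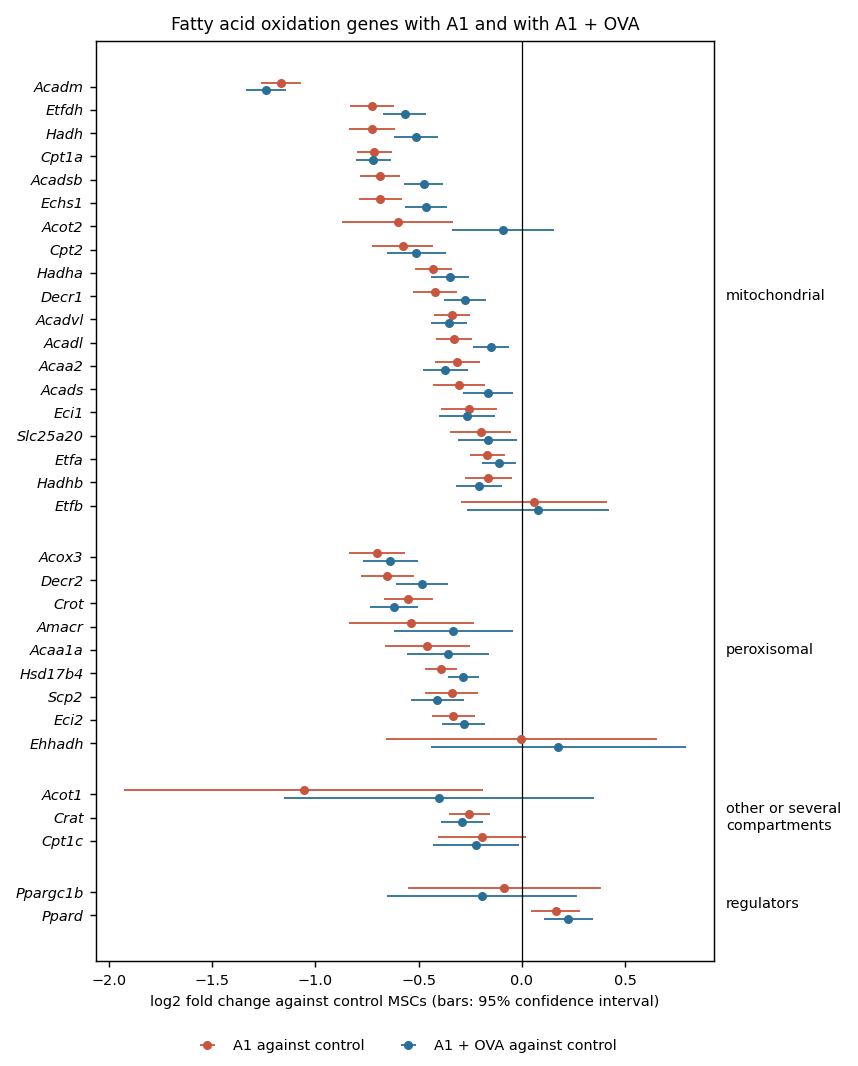
Log2 fold change of the 33 tested members against control MSCs with A1 (red) and with A1 + OVA (blue), with 95% confidence intervals, grouped by compartment and ordered by the A1 value. Nearly all enzymes lie left of 0, Acadm farthest among the well counted ones at −1.17 with A1 and −1.24 with A1 + OVA, while Ppard lies to the right of 0.

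The carnitine shuttle was called lower at each of its 3 steps, but the call of the carrier turned on the setting. Over all tested genes, 31.1% were called lower with A1 and 27.9% with A1 + OVA. Cpt1a (ENSMUSG00000024900, GRCm38 chromosome 19, 3322334 to 3385733), the form of the rate-controlling acyltransferase found in liver and most other tissues, had 160.3, 162, 167 and 161 CPM in control MSCs, 105, 100.3, 94.9 and 95.6 CPM with A1 and 97.9, 96.1, 96.3 and 104 CPM with A1 + OVA. No treated sample came near the controls, and the log2 fold change was −0.72 in both comparisons (SE 0.0407 and 0.0404, adjusted p = 1.65e-12 and 1.5e-12). Cpt2, the matrix-side partner, had 33.2, 29.3, 33.4 and 30.7 CPM in control, 23.6, 20.4, 20.7 and 20 CPM with A1 and 21.2, 24.1, 20.1 and 23.2 CPM with A1 + OVA. It fell by 0.58 (SE 0.0706, adjusted p = 3.59e-07) and by 0.51 (adjusted p = 1.71e-06), again without overlap. The change of the carrier between these enzymes, Slc25a20, was smaller, at −0.20 with A1 (adjusted p = 0.0185) and −0.17 with A1 + OVA (adjusted p = 0.0459). Its A1 replicate 1 stood at 12.7 CPM against 14.5 to 14.8 CPM in the other A1-treated samples and 15.8 to 16.8 CPM in control. Without that sample the A1 call was lost (adjusted p = 0.0713), and the A1 + OVA call was lost on leaving out any of 8 samples (adjusted p = 0.0522 to 0.135). The A1 + OVA call was also lost with DESeq2, another count model (adjusted p = 0.0938). The same held for edgeR with no filter on low counts (adjusted p = 0.0751) or with the replicate number as a block (adjusted p = 0.0605).

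Among the 5 acyl-CoA dehydrogenases, which carry out the first step on chains of different length, all were lower in both comparisons, and the one for medium chains stood apart. The share of all tested genes called lower was 31.1% with A1 and 27.9% with A1 + OVA. Acadm (ENSMUSG00000062908, chromosome 3, 153922357 to 153944632, minus strand) had 241, 243, 225 and 236 CPM in control MSCs, 98.7, 112, 109 and 101 CPM with A1 and 97.3, 102, 93.5 and 107 CPM with A1 + OVA. The highest treated sample (112 CPM) thus held less than 0.5 of the level of the lowest control (225 CPM). Its log2 fold change was −1.17 (SE 0.0468, 95% confidence interval −1.27 to −1.07, adjusted p = 5.19e-15) with A1, a level of 44.5% of control, and −1.24 (adjusted p = 1.97e-15) with A1 + OVA. Acadsb, which acts on short branched chains, had 101, 103, 99.5 and 102 CPM in control, 63.5, 64.3, 66.5 and 57.3 CPM with A1 and 75.2, 75.9, 70.7 and 69.6 CPM with A1 + OVA. Its A1 samples lay lowest and its A1 + OVA samples between them and control, without overlap, with changes of −0.69 and −0.48 against control (adjusted p = 2.71e-11 and 8.82e-09). The very long-chain enzyme Acadvl fell by 0.34 and 0.35 (adjusted p = 4.3e-07 and 2.45e-07), the long-chain enzyme Acadl by 0.33 and 0.15 (adjusted p = 9.14e-07 and 0.00486), and the short-chain enzyme Acads by 0.30 and 0.16 (adjusted p = 0.000188 and 0.022). The Acads call with A1 + OVA was lost without Negative replicate 1 (adjusted p = 0.0898) or A1-OVA replicate 3 (adjusted p = 0.0501).

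The promoter window of Acadm is shown for its far end, since it holds a nuclear receptor site, the letters AGGTCA in the longer form AAGGTCA read on the opposite strand, in capitals. The stretch is chr3:153944866-153944893, minus strand, of the GRCm38.p6 RefSeq promoter table, 250 to 223 bases before the start site. For Cpt1a, the other strongly lowered entry point of the pathway, the stretch around its AGGTCA site, also on the opposite strand and in capitals, is chr19:3323187-3323232, plus strand. The Cpt1a stretch lies before the RefSeq start site but inside the gene as annotated in GENCODE M21, which begins at 3322334.
Acadm: gTGACCTTcgggctccggtgacactggg
Cpt1a: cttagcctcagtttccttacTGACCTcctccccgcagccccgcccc
Acadm and Cpt1a were 2 of the 6 members with AGGTCA on either strand within the 250 bases before and 50 after their start site, the others being Acadvl, Cpt1c, Echs1 and Scp2. That is 20.7% of the 29 members with a window in the table, and 16.3% of all 32851 windows held it. The longer AAGGTCA, which contains AGGTCA, was found in 1 member window, 3.45%, against 4.72% of all windows.

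**Figure D2:**
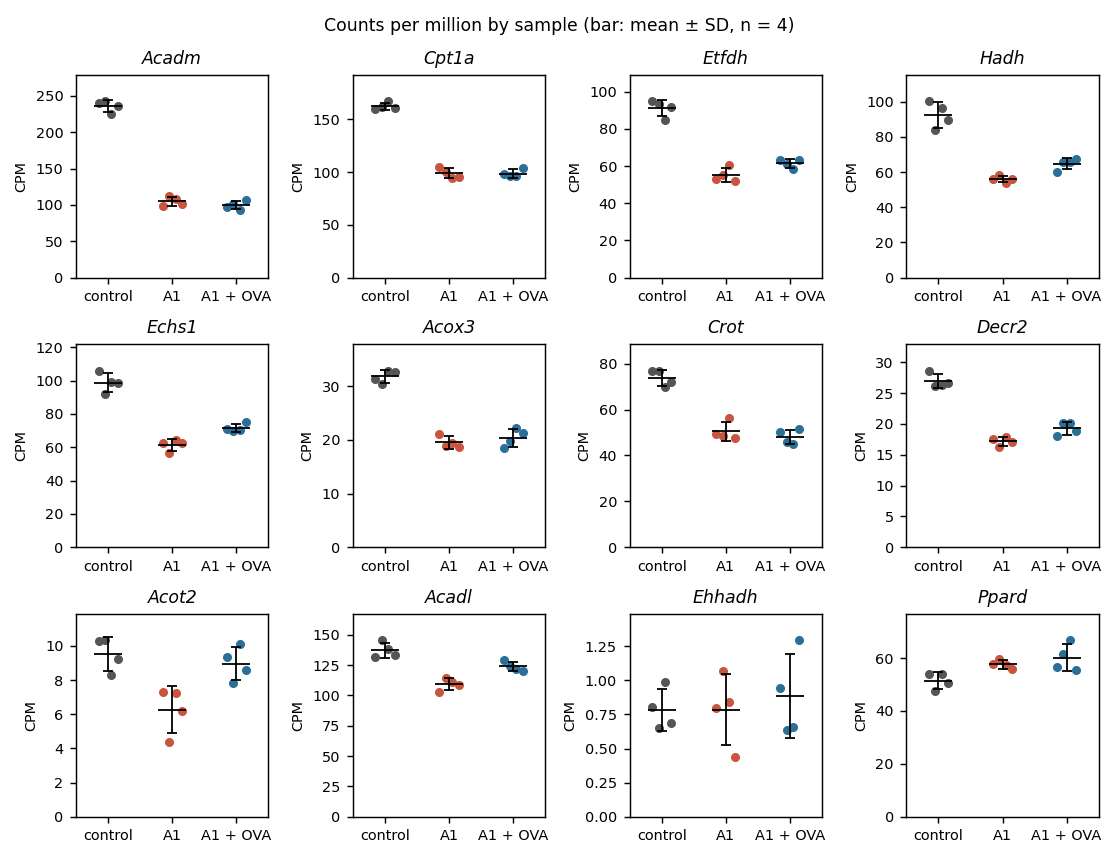
CPM of 12 members in every sample, with the mean and SD of the 4 samples of each group, each panel on its own linear axis from 0. Acadm and Cpt1a are equally low with A1 and A1 + OVA, Acot2 is lower with A1 alone, Ehhadh overlaps in all groups and Ppard is slightly higher in treated samples.

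The next steps of mitochondrial oxidation were lower throughout, by very different amounts. Hadh, the dehydrogenase for medium and short chains, had 100.4, 83.8, 96.2 and 89.5 CPM in control MSCs, 55.8, 58.2, 54.0 and 55.9 CPM with A1 and 60.3, 65.7, 65.7 and 67.3 CPM with A1 + OVA. Echs1, the short-chain hydratase, had 106, 91.7, 98.9 and 98.6 CPM in control, 62.5, 56.3, 64.0 and 62.8 CPM with A1 and 70.8, 69.6, 70.6 and 75.1 CPM with A1 + OVA. In both genes the 3 groups were separate, in the order control, A1 + OVA, A1. The log2 fold changes with A1 were −0.72 for Hadh (SE 0.0536, adjusted p = 1.36e-10) and −0.69 for Echs1 (SE 0.0498, adjusted p = 1e-10), and those with A1 + OVA were −0.51 and −0.47 (adjusted p = 2.65e-08 and 3.87e-08). The thiolase Acaa2 fell by 0.31 and 0.37 (adjusted p = 2.91e-05 and 3.54e-06). Of the auxiliary enzymes that prepare double bonds for the cycle, Decr1 fell by 0.42 and 0.27 and Eci1 by 0.26 and 0.27 (largest adjusted p of the 4 = 0.00207).

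The trifunctional protein, which handles long chains, is built from the products of Hadha and Hadhb, and the genes lie head to head on chromosome 5. Hadha (minus strand) ends the annotation at 30155162 and Hadhb (plus strand) begins at 30155248, so that 85 bases separate them in GRCm38, chr5:30155163-30155247. They are shown on the plus strand in lower case because both genes start beside them, and no CCAAT box was found in them that would be set in capitals.
Hadha and Hadhb: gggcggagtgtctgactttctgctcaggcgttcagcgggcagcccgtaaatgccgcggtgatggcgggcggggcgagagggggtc
Hadha had 194, 205, 215 and 195 CPM in control MSCs, 145, 156, 148 and 152 CPM with A1 and 149, 159, 158 and 170.0 CPM with A1 + OVA, a change of −0.43 with A1 (SE 0.044, adjusted p = 2.68e-08). Hadhb had 39.7, 41.0, 36.7 and 38.0 CPM in control, 35.0, 32.7, 35.1 and 36 CPM with A1 and 32.2, 35.0, 32.5 and 34.9 CPM with A1 + OVA. All treated samples lay below control for each gene, but the fall of Hadhb with A1 was only 0.16 (adjusted p = 0.0125), and without A1 replicate 2 it did not pass (adjusted p = 0.0519). Within a sample, the log2 ratio of Hadha to Hadhb CPM was 2.38 ± 0.117 (SD, n = 4) in control, 2.12 ± 0.0940 with A1 and 2.24 ± 0.0466 with A1 + OVA. It was lower than control with A1 by 0.27 and with A1 + OVA by 0.14, with all 4 treated samples below all 4 controls each time (exact permutation test, two-sided, p = 0.0286, the smallest that 4 against 4 allows, and 0.0429 after adjustment over 3 comparisons). A1 + OVA and A1 did not pass for this ratio (exact permutation p = 0.0857). The pair was chosen after its values were seen.

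ETF and its oxidoreductase carry the electrons away from the acyl-CoA dehydrogenases, and their 3 genes did not move alike. Etfdh, which encodes the oxidoreductase, had 94.9, 93.4, 85.0 and 91.6 CPM in control MSCs, 53.3, 55.0, 60.4 and 51.9 CPM with A1 and 63.3, 61.3, 58.3 and 63.3 CPM with A1 + OVA. It fell by 0.73 with A1 (SE 0.0507, adjusted p = 5.13e-11) and by 0.57 with A1 + OVA (adjusted p = 2.31e-09), with every treated sample below every control. Etfa, the ETF alpha subunit, fell by 0.17 (SE 0.0402, adjusted p = 0.00109) and by 0.11 (adjusted p = 0.0195), and the latter call was lost without A1-OVA replicate 1, Negative replicate 1 or Negative replicate 2 (adjusted p = 0.0557 to 0.0575). For Etfb, the beta subunit, the values were 0.06 (95% confidence interval −0.29 to 0.41) and 0.08 (−0.26 to 0.42) from 39 to 80 counts, and neither passed. In GENCODE M21, the annotation used here for names and lengths, 617 of its 1164 exon bases (53.0%) overlap other genes on the same strand, Gm45233 and Mir7051. The authors counted reads on a later Ensembl release, in which this overlap was not checked, so that the Etfb counts are uncertain. Compared per kilobase of exon, Etfa stood at 71.5 ± 3.47 CPM and Etfb at 3.51 ± 0.651 CPM in control MSCs (SD, n = 4), the former the highest level of all members.

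Echs1 and Etfa also hold, within their windows, a match to the PPAR-type direct repeat AGGTCANAGGTCA with up to 2 mismatches on either strand. It stands in capitals in the stretches chr7:140116472-140116524 for Echs1 and chr9:55512288-55512340 for Etfa, both on the minus strand and both with 2 mismatches. The repeat of Echs1 includes the AGGTCA counted above.
Echs1: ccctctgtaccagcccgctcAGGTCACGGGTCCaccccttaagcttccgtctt
Etfa: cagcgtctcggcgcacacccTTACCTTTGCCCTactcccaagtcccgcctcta
Such a match was found in 3 member windows, the third being Slc25a20, which is 10.3% of member windows against 3.86% of all windows. The 3 genes changed by −0.69, −0.17 and −0.20 with A1, and Acadm, with the strongest fall, had none in its window. The core of the NRF1 motif, the letters GCGCA and GCGC with any base between them on either strand, occurred in Etfb, Etfdh and Ppara (10.3% against 4.6% of all windows), and the box CCAAT in 13 members (44.8% against 37.4%). A match describes the letters only.

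Mitochondrial acyl-CoA thioesterase Acot2, which frees fatty acids from CoA, was the member in which A1 and A1 + OVA differed most among those called. It had 10.3, 10.3, 8.29 and 9.22 CPM in control MSCs, 7.30, 4.35, 7.25 and 6.17 CPM with A1 and 9.35, 7.85, 10.1 and 8.57 CPM with A1 + OVA. The A1 samples lay below both other groups, whereas A1 + OVA overlapped control. The log2 fold change was −0.60 with A1 (SE 0.13, adjusted p = 0.000403) and −0.09 with A1 + OVA (95% confidence interval −0.34 to 0.16, adjusted p = 0.528). Acot1, the cytosolic form, is its neighbour on chromosome 12 (84009490 to 84018371, Acot2 at 83987861 to 83993873) and a close paralog, so that reads could be split between them. It had 14, 17, 14 and 6 counts in control, 2, 2, 8 and 8 with A1 and 10, 10, 6 and 10 with A1 + OVA. The groups overlapped, and the change with A1 of −1.06 (SE 0.418, adjusted p = 0.0305) was lost on leaving out A1 replicate 1 or 2 or Negative replicate 1, 2 or 3 (adjusted p = 0.0593 to 0.11).

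The peroxisomal set was lowered as well, with 8 of its 9 members called in each comparison with control, against 31.1% of all tested genes with A1 and 27.9% with A1 + OVA. Acox3, an oxidase of the first peroxisomal step with preference for branched chains, had 31.3, 30.4, 32.9 and 32.6 CPM in control MSCs, 21.2, 18.8, 19.5 and 18.7 CPM with A1 and 18.4, 19.8, 22.2 and 21.2 CPM with A1 + OVA. It fell by 0.70 (SE 0.0652, adjusted p = 5.48e-09) and by 0.64 (adjusted p = 1.93e-08), without overlap with control. The later steps are carried by Hsd17b4, a bifunctional hydratase and dehydrogenase, and by the thiolases Acaa1a and Scp2. These changed by −0.39, −0.46 and −0.34 with A1 (adjusted p = 8.23e-09, 0.000407 and 6.56e-05) and by −0.28, −0.36 and −0.41 with A1 + OVA (adjusted p = 9.74e-07, 0.00297 and 6.8e-06). Amacr, the racemase that prepares branched chains, had 11, 7.03, 9.28 and 9.47 CPM in control, 6.07, 5.8, 7.10 and 6.32 CPM with A1 and 5.87, 8.04, 5.88 and 9.12 CPM with A1 + OVA. Its control replicate 2 reached into the A1 range. The change was −0.54 with A1 (SE 0.146, adjusted p = 0.00311), and that of −0.33 with A1 + OVA (adjusted p = 0.0451) was lost when A1 replicate 2, A1-OVA replicate 1 or 3 or Negative replicate 1, 3 or 4 was left out (adjusted p = 0.0503 to 0.167). The A1 + OVA call of Amacr was also lost with only the compared groups in the edgeR fit (adjusted p = 0.054).

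The auxiliary and export enzymes of peroxisomes were lower too. Decr2, the peroxisomal dienoyl-CoA reductase, had 28.7, 26.2, 26.4 and 26.6 CPM in control MSCs, 17.6, 16.2, 17.9 and 17.0 CPM with A1 and 18.0, 20.1, 20.1 and 18.9 CPM with A1 + OVA. Crot, which makes carnitine esters of shortened chains for export to mitochondria, had 76.8, 77.0, 69.9 and 72.0 CPM in control, 49.5, 48.3, 56.3 and 47.7 CPM with A1 and 50.2, 46.0, 45.1 and 51.3 CPM with A1 + OVA. Neither gene overlapped control in any treated sample. Decr2 fell by 0.65 and 0.48 (adjusted p = 8.8e-09 and 5.29e-07) and Crot by 0.55 and 0.62 (adjusted p = 2.96e-08 and 4.81e-09), while the isomerase Eci2 fell by 0.33 and 0.28 (adjusted p = 6.85e-06 and 4.72e-05). Ehhadh, the other bifunctional enzyme and a classical PPAR alpha target in liver, was the exception, with 11 to 16 counts in control, 6 to 14 with A1 and 10 to 21 with A1 + OVA. Its log2 fold change with A1 was −0.00 with a 95% confidence interval from −0.66 to 0.65, wide enough to hold the change of most other members, so that a difference was not detectable at this depth.

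The mitochondrial and peroxisomal members had similar medians. The median log2 fold change with A1 was −0.42 over the 19 mitochondrial and −0.46 over the 9 peroxisomal members, that is a change of −25.3% and −27.2%. With A1 + OVA the medians were −0.35 and −0.36. Called lower with A1 were 18 of 19 mitochondrial and 8 of 9 peroxisomal members, of which 8 and 4 fell by at least 0.5 (31.1% and 11.6% of all tested genes). The summed level of the mitochondrial members was 1637 ± 22.6 CPM in control, 1122 ± 13.4 CPM with A1 and 1186 ± 26.5 CPM with A1 + OVA (SD, n = 4), and that of the peroxisomal members was 394 ± 2.48, 288 ± 7.41 and 298 ± 7.69 CPM. The sums with A1 differed from control by −31.5% and −26.8%. Within each sample, the mitochondrial minus the peroxisomal median of log2 CPM relative to control ran from −0.02 to 0.04 in control, from −0.00 to 0.14 with A1 and from 0.00 to 0.22 with A1 + OVA. These ranges overlap, and no test was made of this difference, since members are not replicates.

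**Figure D3:**
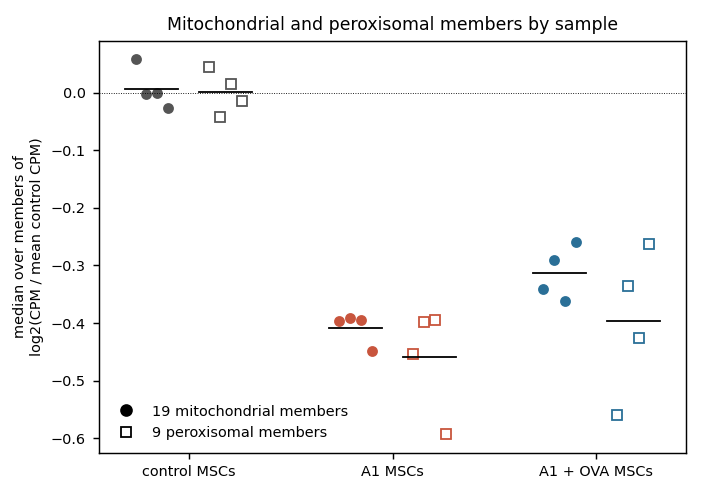
Median over the 19 mitochondrial (filled circles) and 9 peroxisomal (open squares) members of log2(CPM / mean control CPM) in each sample, with a line at the mean of the 4 samples. Both compartments lie between −0.59 and −0.26 in every treated sample, and near 0 in control, with the peroxisomal values more spread.

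Of the 2 remaining enzymes, 1 passed the test. Crat, carnitine acetyltransferase of mitochondria and peroxisomes, fell by 0.25 and 0.29 (adjusted p = 0.000117 and 2.45e-05). Cpt1c, a form of Cpt1 known from neurons and located in the endoplasmic reticulum, had values of −0.19 (95% confidence interval −0.40 to 0.02, adjusted p = 0.107) and −0.22 (−0.43 to −0.01, adjusted p = 0.0625). Its calls turned on the setting. With A1 it passed without A1 replicate 4 (−0.31, adjusted p = 0.0133) and under total-count scaling (adjusted p = 0.0261). With A1 + OVA it passed under 8 settings (adjusted p = 0.0188 to 0.048), namely total-count and upper-quartile scaling, no filter on low counts, the compared groups only, and without A1 replicate 3 or 4, A1-OVA replicate 3 or Negative replicate 4.

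Among the regulators, Ppard alone passed the test, and it was higher. Ppard (ENSMUSG00000002250, chromosome 17, 28232700 to 28301474), the fatty acid-sensing receptor of most tissues, had 53.9, 47.5, 54.0 and 50.5 CPM in control MSCs, 57.9, 59.6, 57.3 and 55.8 CPM with A1 and 56.8, 61.4, 66.8 and 55.4 CPM with A1 + OVA. All treated samples lay above all controls, by a small margin. Its log2 fold change was 0.16 with A1 (SE 0.0579, adjusted p = 0.0184) and 0.22 with A1 + OVA (SE 0.057, adjusted p = 0.00197). The A1 call was lost without Negative replicate 2 (adjusted p = 0.0721) or A1 replicate 2 (adjusted p = 0.051), and under scaling by total counts the value was 0.08 (adjusted p = 0.234). Ppargc1b, a PGC-1 coactivator, had 20, 21, 27 and 31 counts in control, 26, 17, 21 and 13 with A1 and 19, 20, 21 and 21 with A1 + OVA. These overlap, with changes of −0.09 (95% confidence interval −0.55 to 0.38) and −0.19 (−0.65 to 0.27). Ppara, the receptor that drives these genes in liver, had 1 count in a single control sample and 0 in the other 11 samples. Ppargc1a, the PGC-1 coactivator prominent in muscle and brown fat, had 3 counts in 1 A1-treated sample, 1 count in 1 A1 + OVA-treated sample and 0 elsewhere. Both stayed at or under 3 counts in every sample and were not detectable at this depth. The remaining PPAR receptor, Pparg, is not a member and is named here after its values were seen. It had 125 ± 4.26 CPM in control, 124 ± 7.79 CPM with A1 and 117 ± 4.94 CPM with A1 + OVA (SD, n = 4).

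Other genes of the pathway, outside the 35, were taken from lists by function, to be read against the 31.1% lower and 31.7% higher of all tested genes with A1, and the 27.9% and 29.7% with A1 + OVA. Of 22 tested further enzymes, mainly mitochondrial and including those of branched-chain and propionate breakdown, 15 were lower and 2 higher with A1, with a median of −0.43. This list was not sorted by compartment and is not part of the contrast of mitochondrial with peroxisomal members. The lowest was Echdc3, an enoyl-CoA hydratase family member, at −1.15 (6.82 ± 0.760 to 3.07 ± 0.541 CPM, SD, n = 4), and the highest among called genes the thioesterase Acot7 at 0.26. Of 21 tested peroxisomal lipid genes, 11 were lower and 2 higher (median −0.23). The very long-chain transporter Abcd2 was lowest at −1.84 (8.86 ± 0.622 to 2.47 ± 0.137 CPM), and the reductase Pecr was highest among called genes at 0.41. Peroxisome biogenesis factors had 6 lower and 2 higher of 17 (median −0.13), with Pex5, an import receptor, highest among called genes at 0.26. With A1 + OVA the counts lower and higher were 14 and 2, 9 and 2, and 5 and 3 in these lists, and the medians were −0.21, −0.13 and 0.04.

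Among 15 tested genes of fatty acid uptake and activation, 8 were lower and 3 higher with A1 (median −0.15, background 31.1% and 31.7%), from the acyl-CoA synthetase Acsl3 at −1.10 (219 ± 10.1 to 102 ± 3.54 CPM) to the binding protein Fabp5 at 0.36. With A1 + OVA, 8 were lower and 4 higher (median −0.11). Among 10 tested genes of lipolysis and malonyl-CoA, the inhibitor of Cpt1, 7 were lower with A1 and 3 did not pass (median −0.50). The counts were the same with A1 + OVA (median −0.38), though not for all the same genes. The list mixes roles, since Acaca makes malonyl-CoA while Mlycd breaks it down, and both, named after their values were seen, were called lower with A1 (−0.58 and −0.45). Mlycd had 3.57 ± 0.482 CPM in control, 2.61 ± 0.771 CPM with A1 and 3.45 ± 0.546 CPM with A1 + OVA. Mid1ip1, also named after its values were seen, had 47.4 ± 2.27, 48.7 ± 2.28 and 42.1 ± 0.869 CPM in the same order. Lpl, the lipase that frees fatty acids from lipoproteins, was lowest at −1.65 (1840 ± 105 to 584 ± 14.1 CPM), and Pnpla8 was the least changed of those called at −0.40. Some of these genes stand in more than 1 list.

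Genes known as PPAR targets outside the oxidation enzymes were called about as often in each direction as all tested genes (31.1% lower and 31.7% higher with A1). Of 10 tested, 3 were lower and 4 higher with A1 (median 0.02), from the lipid droplet protein Plin4 at −1.16 (306 ± 18.5 to 136 ± 10.8 CPM) to Pdk4, the kinase that restrains pyruvate dehydrogenase, at 0.53 (85.3 ± 3.92 to 123 ± 4.24 CPM). With A1 + OVA, 3 were lower and 5 higher (median −0.07). PPAR partners and regulators of mitochondrial biogenesis counted 7 lower and 9 higher of 23 with A1 (median −0.01) and 6 lower and 7 higher with A1 + OVA (median −0.04), also near those shares. Lpin1, a phosphatidate phosphatase and coactivator of PPAR alpha, was lowest at −1.37 (44.0 ± 4.89 to 17.1 ± 1.97 CPM), and Esrra, a receptor that binds sites of the AAGGTCA type, was highest at 0.67 (14 ± 1.72 to 22.3 ± 2.10 CPM).

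**Figure D4:**
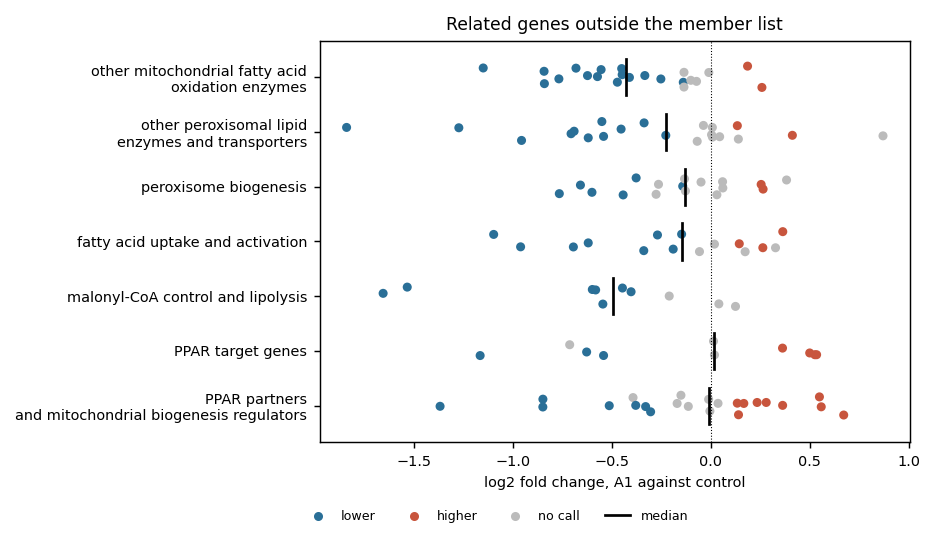
Log2 fold change with A1 against control of the tested genes of 7 lists outside the 35 members, with called genes in blue (lower) or red (higher), the rest in grey and the list median as a black line. The medians of the further, mainly mitochondrial enzymes (−0.43) and of malonyl-CoA control and lipolysis (−0.50) lie lowest, and those of PPAR targets (0.02) and PPAR partners (−0.01) lie near 0.

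Adding OVA to A1 raised 6 members relative to A1 alone, against a background of 6.05% of all tested genes called higher. None of the 33 was called lower by edgeR (background 6.81%), 0 had an unadjusted p under 0.05 in that direction and DESeq2 also called 0. The 6 were mitochondrial. Acot2 rose by 0.51 (SE 0.133, adjusted p = 0.014), Echs1 by 0.22 (adjusted p = 0.00672), Acadsb by 0.21 (adjusted p = 0.00513), Hadh by 0.21 (adjusted p = 0.0143), Acadl by 0.18 (adjusted p = 0.00814) and Etfdh by 0.16 (adjusted p = 0.0498). Acadl had 132, 146, 138 and 134 CPM in control MSCs, 103, 115, 111 and 109 CPM with A1 and 129, 125, 122 and 120 CPM with A1 + OVA, so that its groups were separate. Of the 6 genes, the values given above show 5 with A1 + OVA above A1 in every sample, and Etfdh with 1 A1-treated sample (60.4 CPM) inside the A1 + OVA range. The peroxisomal Hsd17b4 and Decr2 and the mitochondrial Acads also lay above A1 without overlap, but were not called (adjusted p = 0.0648, 0.0976 and 0.148). The share of all tested genes without overlap was not computed for this comparison. The Etfdh call was lost on leaving out any of 8 samples (adjusted p = 0.0505 to 0.165), that of Acot2 without A1 replicate 2 (adjusted p = 0.0507), and that of Hadh without A1-OVA replicate 4 (adjusted p = 0.0517). With all samples kept, the Etfdh call was also lost with DESeq2 (adjusted p = 0.0679). In edgeR it was lost with RLE scaling (adjusted p = 0.0584), every gene of the table (adjusted p = 0.0612) or the replicate number as a block (adjusted p = 0.0639).

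Acadm, with the largest fall of a well counted member, and Cpt1a were not among the genes raised by OVA. Acadm differed between A1 + OVA and A1 by −0.07 (95% confidence interval −0.17 to 0.03) and Cpt1a by −0.00 (−0.09 to 0.08). Of the 9 peroxisomal members edgeR called 0 in this comparison, with 2 higher at an unadjusted p under 0.05 and 0 called by DESeq2. Their median was 0.10, against 0.07 for the mitochondrial members and 0.0057 for all tested genes. Leaving out 1 sample at a time, the peroxisomal median ran from 0.041 (without A1 replicate 4) to 0.11, with 0.045 without A1-OVA replicate 4 and 0.059 without A1-OVA replicate 3, and the mitochondrial one from 0.047 (without A1-OVA replicate 4) to 0.12 (without A1 replicate 1), so that their order is not fixed. That the calls fell on mitochondrial members alone is therefore a count and no tested difference between compartments.

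**Figure D5:**
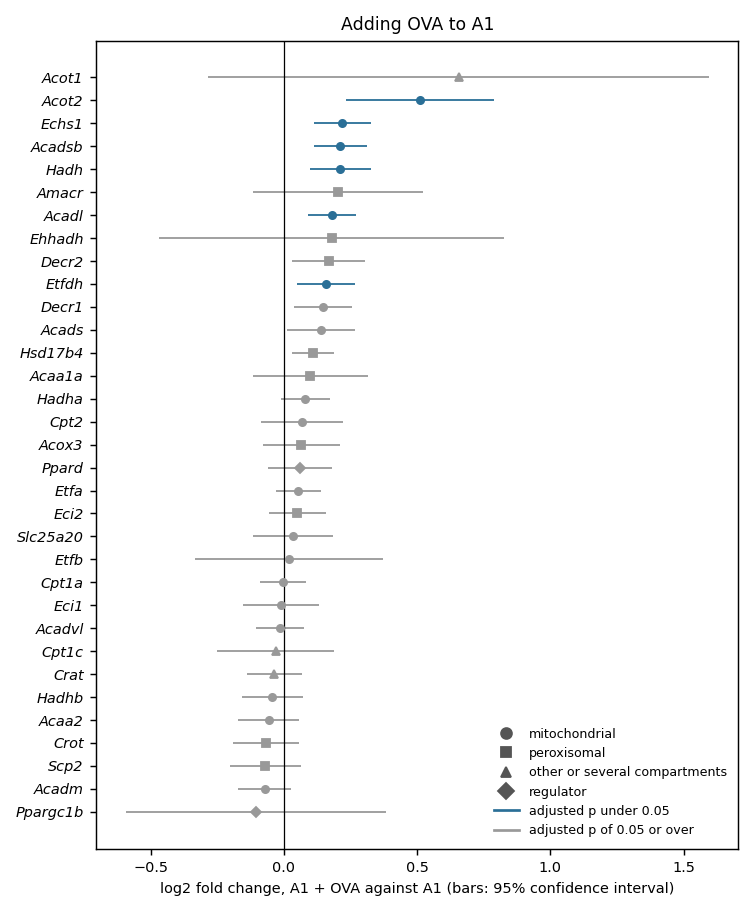
Log2 fold change of A1 + OVA against A1 for the 33 tested members, with 95% confidence intervals, ordered by value, with shapes for the compartment and blue for an adjusted p under 0.05. The 6 blue genes are mitochondrial and lie between 0.16 and 0.51, and the peroxisomal squares, all grey, lie between −0.07 and 0.20.

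In control MSCs, levels per kilobase of exon differed widely among members. After Etfa, Acadl (68.5 ± 3.09 CPM per kilobase) and Acadm (60.4 ± 1.99) were highest, and Etfa and Acadl did not differ beyond their spread. Hsd17b4 (38.8 ± 0.966) was the highest peroxisomal member, and Acox3 (2.76 ± 0.100) the lowest but for Ehhadh (0.263 ± 0.0511). Ppard stood at 6.85 ± 0.414 and Ppargc1b at 0.382 ± 0.0868. These lengths are the union of all annotated exons of a gene, so that genes with long rare exons are understated.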

How the data were processed

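Mouse MSCs were sequenced by the authors from strand-specific mRNA libraries. Per the labels and methods, reads were demultiplexed with bcl2fastq 2.20, aligned to GRCm38 with STAR 2.7 and assigned to genes with featureCounts 2.0, and the raw gene counts were deposited without normalization. All other values were computed here. Groups and replicate numbers were taken from the sample titles, which the columns repeat. Names, biotypes and exon lengths came from GENCODE M21 of GRCm38, which holds 99.53% of the 55487 identifiers. Protein-coding genes (21974) were filtered with filterByExpr, which kept 11314, scaled by TMM and tested with edgeR 4.0.16 (R 4.3.3) by the quasi-likelihood test in 1 fit of all 12 samples with group as the only term. P-values were adjusted by Benjamini-Hochberg over the tested genes, and a call needs an adjusted p under 0.05. CPM use TMM-scaled library sizes and no prior count.

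The 35 members and the gene lists were chosen with earlier results of these data known. Values in every sample are given for members that fell or rose by at least 0.5 with a call against control, members called between A1 + OVA and A1, and the regulators. From each functional list the called genes with the lowest and highest change with A1 are named. A gene selected this way is left out and not reported here. Promoter windows came from RefSeq (GRCm38.p6) and matched 29 of 35 members. Acaa2, Decr1, Hsd17b4, Amacr, Crat and Ppargc1b are without one here.

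Alternatives were total-count, RLE and upper-quartile scaling, DESeq2 1.42.0, no filter, a minimum of 10 counts per sample, every gene of the table, the compared groups only, a log2 fold change of at least 0.5, the replicate number as a block, and each sample left out in turn. Pairs of replicates differed by 2.18 to 9.04 times the counting variance, so that no library is a copy of another. At or under 3 counts in every sample a gene is called not detectable. The 4 samples per group limit the precision. No batch is named, and the library numbers that the columns carry follow the groups, so that their order and group cannot be told apart.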

Additional observations from a re-analysis of the deposited data

Results flagged for a closer look

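In 99 groups of 4 samples (33 tested members in 3 groups), 1 sample stood far from the others of its group: Slc25a20, the carnitine-acylcarnitine carrier, in A1 replicate 1, at 12.7 CPM against 14.5 to 14.8 CPM in the other 3 samples. Its gap to the nearest sample made up 0.852 of the group's range, above Dixon's critical value of 0.829. Chance alone flags about 1 in 20 groups, so that 1 of 99 is fewer than chance gives. Without this sample the fall of Slc25a20 with A1 did not pass (adjusted p = 0.0713).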

How the results depend on the processing

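Scaling by total counts moved the mitochondrial median to −0.50 with A1 and to −0.41 with A1 + OVA, shifted all tested genes by −0.08 and −0.07 and changed the calls over all genes from 3516 lower and 3582 higher to 4493 and 2681 with A1, and from 3160 and 3358 to 4097 and 2616 with A1 + OVA. With it and with upper-quartile factors, 0 members were higher with A1. With calls of at least 0.5, 13 and 7 members were lower and 0 and 0 higher with A1 and A1 + OVA, and 1 was higher with A1 + OVA than with A1. Leaving out 1 sample at a time, members lower ranged from 26 to 29 with A1 and from 22 to 27 with A1 + OVA, members higher with A1 from 0 to 1, and members higher with A1 + OVA than with A1 from 4 to 6, with a mitochondrial median from 0.047 to 0.12. No member with a call changed direction. Over the other 9 settings, 865 of 883 values for single members kept their side of the threshold, 10 lost and 8 gained a call, and 1145 of 1188 did so over the 12 fits without 1 sample. Those changes lie in Ppard, Slc25a20, Etfdh, Etfa, Hadhb, Hadh, Acads, Acot1, Acot2, Amacr, Cpt1c, Decr1 and Hsd17b4, and the cause was not tested. DESeq2 called 5 members higher with A1 + OVA than with A1 in place of 6, and 25 members lower with A1 + OVA than in control in place of 26. Replicate numbers are shared by the groups, but same-numbered samples deviated together no more than others (mean correlation 0.02 over 12 pairs, range −0.20 to 0.23, against −0.01 over 36 other pairs, range −0.22 to 0.22). Some samples with different numbers did deviate together. A1 replicate 3 had 0.21 with A1-OVA replicate 2 and −0.21 with A1-OVA replicate 4, and A1 replicate 2 had −0.20 and 0.22. Within A1, replicates 1 and 3 differed by 2.89 times the counting variance, and replicates 1 and 4 by 8.57 times. The samples of a group may thus hold a structure that replicate numbers do not follow. It was not modelled and its cause was not tested. With the replicate block, 28 members were lower with A1, 25 with A1 + OVA, and 5 were higher with A1 + OVA than with A1, where Etfdh did not pass (adjusted p = 0.0639), as Slc25a20 did not with A1 + OVA against control (adjusted p = 0.0605). Depth limits Ppara, Ppargc1a, Ehhadh, Acot1 and Ppargc1b. The counts of the lists outside the members were not recomputed under these settings.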
